A study of Mus musculus with 6 samples.

Results

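The genes described here are 35 genes of the interferon response, a named gene module, compared between wild-type (WT) and Elf5 knockout (KO) mouse mammary glands. Of the 35 genes, 33 had a probe set annotated to 1 gene, out of 18193 such genes on the array. Of these, 30 passed the filter on low signals and were tested among 10916 genes, 3 (Oas3, Mx2 and Dhx58) lay below it, and Isg15 and Ifi44 were not analysed here. RNA came from mammary glands of 3 mice labelled wild type and 3 labelled Elf5 KO, 1 Affymetrix array per sample. The stage is pregnancy day 17 in the sample labels and lactation day 1 in the text on the series' design. Elf5 is an ETS-family transcription factor made by luminal epithelial cells. The sources used here do not give how or in which cells it was disrupted, nor the strain or the age of the animals.

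Interferons are secreted cytokines that act through cell-surface receptors and Janus kinases. Type I interferons bring a complex that holds Stat2 and Irf9 to the interferon-stimulated response element (ISRE) of target promoters, and interferon gamma acts through a gamma-activated site (GAS). The targets include enzymes and binding proteins that block viral RNA and protein, sensors of foreign nucleic acid, and the immunoproteasome and transporter that prepare peptides for MHC class I. Many of the targets are transcribed at a low level without infection, and resident leukocytes, epithelium and stroma can all express them.

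For most interferon response genes, 1 WT mouse stood apart from the other WT mice, and the KO mice did not stand apart from WT as a group. WT array 1 had the highest signal of the WT arrays for 27 of 30 genes tested, against 37.2% of all genes tested. Its excess over the mean of WT arrays 2 and 3 had a median of 1.25 on the log2 scale, against -0.01 over all genes tested. None of the 30 genes passed the test between KO and WT (limma, 0 of 30 after Benjamini-Hochberg adjustment, against 1.08% of all genes tested, 1.02% higher and 0.0641% lower in KO), and 2 had an unadjusted p under 0.05, where 21.9% of all genes did. The median KO minus WT difference was -0.27 with all 6 arrays and 0.22 without WT array 1, against 0.06 and 0.05 over all genes tested.

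Some facts of the whole series bear on these values. Elf5 read 12011, 8044 and 7244 in WT arrays 1, 2 and 3 and 5616, 4361 and 3128 in the KO, so the transcript was measured in every KO array, below every WT array (-1.06 ± 0.32, SE, limma adjusted p = 0.111; 0.0165 with a block on replicate number). The Gapdh control signal at the 3' end over that at the 5' end, near 1 for intact RNA, was 0.802 to 1.09 in the WT arrays and KO array 1. It was 3.89 and 13.7 in KO arrays 2 and 3. The same ratio for Actb set KO array 3 apart (21) but not KO array 2 (1.87), and was 1.20 to 2.04 in the other arrays, highest in WT array 1. Values over the 4 arrays with a Gapdh ratio under 2 ("low-ratio arrays", by Gapdh alone) are given where they matter, and rest on KO array 1 alone. The signals are in the authors' arbitrary units and were tested as log2(signal + 16). Arrays of the same replicate number deviated together, and where the block on that number ("the paired fit") altered the call of a gene described here, its value is given. The 3 mice of a group are labelled biological replicates, and the number of arrays limits the precision. Milk proteins, the defining transcripts of the secreting gland, were bright throughout: the summed signal of 5 of them ran from 45971 to 139306 in WT and from 34876 to 63582 in the KO.

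**Figure D1:**
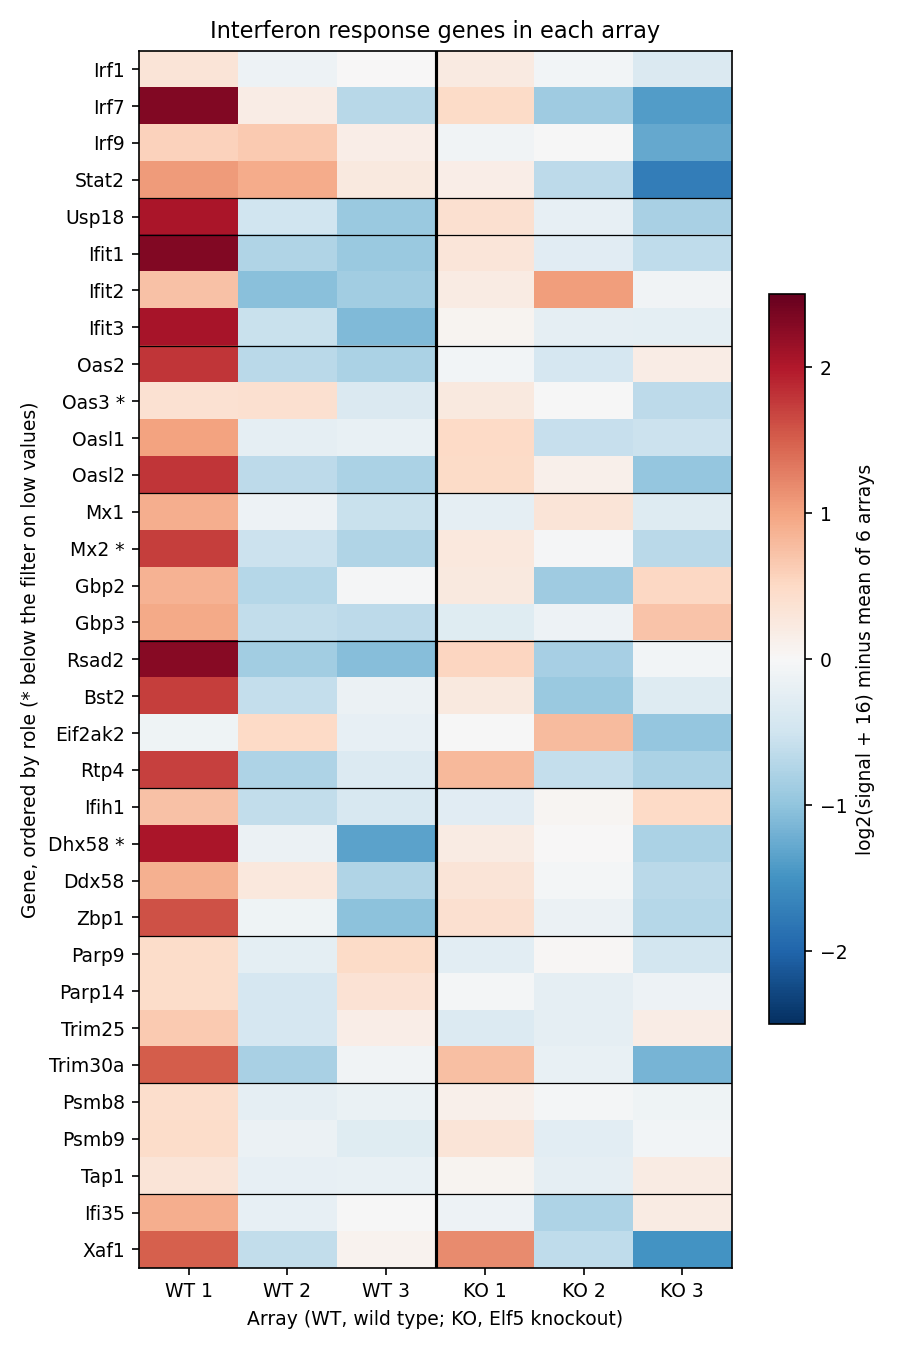
Heat map of the 33 interferon response genes with a probe set (rows, grouped by role) in each array (columns; WT arrays left of the vertical line, Elf5 KO arrays right). Colour is log2(signal + 16) minus that gene's mean over the 6 arrays, and a star marks the 3 genes below the filter. The WT 1 column holds the darkest red cells (Irf7, Usp18, Ifit1, Ifit3, Rsad2 and Dhx58).

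The transcription factors of the response were lower in the KO mean, and they held the only members whose groups did not overlap. Stat2, the signalling partner of the type I receptor, read 176, 159 and 92.1 in WT and 86.5, 42.5 and 11.6 in the KO. All 3 KO values lay below all 3 WT values, with the highest KO array close under the lowest WT array. The difference was -1.49 ± 0.47 on the log2 scale (SE, n = 3 per group, limma adjusted p = 0.123). It passed in the paired fit (adjusted p = 0.0216) and without KO array 1 (-1.94, adjusted p = 0.0249), where KO is left with the mice whose Gapdh ratios were 3.89 and 13.7, and was -0.58 in the low-ratio arrays. These are low signals, and the difference was -1.93 with a pseudocount of 1 and -0.93 with one of 64. A second, dimmer Stat2 probe set differed by -0.74 and its groups overlapped.

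Irf9, the DNA-binding partner of the same complex, read 564, 590 and 417 in WT and 347, 367 and 142 in the KO. Here too no KO value reached the lowest WT value. The difference was -0.93 ± 0.39 (SE, adjusted p = 0.205; 0.0691 in the paired fit) and -0.56 in the low-ratio arrays. Stat2 and Irf9 make 2 of 30 members whose KO values all lay below WT, where 10.7% of all genes tested did so, and 0 of 30 lay above WT, against 16.8%.

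Irf7, the factor that amplifies type I interferon production, read 1119, 242 and 124 in WT and 299, 107 and 70.6 in the KO. Array 1 was the highest of its genotype in both groups, and the groups overlapped because KO array 1 exceeded WT arrays 2 and 3. Irf7 differed by -1.21 ± 0.73 (SE, adjusted p = 0.346), passed in the paired fit (adjusted p = 0.0411) and differed by -0.13 in the low-ratio arrays. With Stat2 it made 2 of 30 members that passed in the paired fit, below the 12% of all genes that passed there (7.54% higher and 4.43% lower in KO). Irf1, an early target of interferon gamma, was level: it read 526, 381 and 425 in WT and 489, 399 and 324 in the KO, a difference of -0.14 with a 95% interval of -0.80 to 0.53.

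Grouped by role, the IFIT proteins, which bind viral RNA and hold back translation, had the highest median WT array 1 excess among the tested members (2.89 on the log2 scale). Ifit1 read 827 in WT array 1 but 84.2 and 73.3 in WT arrays 2 and 3. Its 3 KO values of 192, 124 and 92.9 lay inside that range. The highest WT array was 11.3-fold above the lowest, and the highest KO array 2.07-fold. The difference between genotypes was -0.42 ± 0.75 (SE, adjusted p = 0.762), with a 95% interval of -2.10 to 1.26. Ifit3 read 1204, 184 and 120 in WT and 293, 236 and 230 in the KO. Again WT array 1 alone stood above every KO array, and the KO values kept close together. Ifit2 read 139, 29.5 and 35.1 in WT and 91.1, 176 and 72.3 in the KO. It was the member with the largest positive difference (0.78 ± 0.50, SE, adjusted p = 0.372), and its highest value came from KO array 2.

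Usp18, the protease that removes Isg15 from proteins and damps the receptor, read 732, 112 and 79.7 in WT and 222, 141 and 87.4 in the KO. WT array 1 was again apart, 9.18-fold above WT array 3, and the other 5 arrays overlapped across genotypes. Isg15 itself, the ubiquitin-like partner, is annotated on a probe set shared with another gene and was not analysed here.

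Rsad2 (viperin), which makes a chain-terminating nucleotide, read 1986, 212 and 182 in WT and 587, 218 and 381 in the KO. Its WT array 1 excess of 3.24 on the log2 scale was the largest among the members and ranked number 6 among all 10916 genes tested. The genotypes differed by -0.23 ± 0.79 (SE, adjusted p = 0.882). Both other Rsad2 probe sets were also highest in array 1 of each genotype, at 552 and 601 in WT array 1 and 213 and 238 in KO array 1. Bst2 (tetherin), which holds budding virus at the membrane, read 1254, 238 and 329 in WT and 435, 186 and 291 in the KO. Its difference of -0.67 ± 0.57 (SE, adjusted p = 0.504) shrank to -0.09 in the low-ratio arrays. Rtp4, an interferon-induced chaperone of membrane receptors, read 2545, 443 and 601 in WT and 1356, 500 and 437 in the KO. For Rtp4 both number 1 arrays lay above all 4 other arrays. Eif2ak2, the double-stranded RNA kinase PKR, did not follow: it read 82.9, 135 and 76.9 in WT and 90.4, 170 and 38.5 in the KO, with array 2 highest in both genotypes.

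Promoters of genes with a large WT array 1 excess are shown with their ISRE matches, since these genes moved together across mice. Sequences are the 150 bases before the RefSeq transcription start, 5′ to 3′ on the gene's strand, in build GRCm38.p6, with capitals marking each match of GAAANNGAAA on either strand (TTTCNNTTTC on the other). They lie at chr12:26456453-26456602 (minus strand) for Rsad2, chr19:34640739-34640888 (plus) for Ifit1, chr19:34583379-34583528 (plus) for Ifit3 and chr8:71537473-71537622 (minus) for Bst2. Irf7 at chr7:141266425-141266574 (minus) is shown as a gene with a large excess (2.58, between those of Bst2 and Ifit3) and no match, and Psmb9 at chr17:34187331-34187480 (minus) as one with a small excess and no match.
Rsad2: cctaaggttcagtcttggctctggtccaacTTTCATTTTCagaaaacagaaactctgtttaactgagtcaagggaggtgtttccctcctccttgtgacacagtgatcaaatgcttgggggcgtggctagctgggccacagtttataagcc
Ifit1: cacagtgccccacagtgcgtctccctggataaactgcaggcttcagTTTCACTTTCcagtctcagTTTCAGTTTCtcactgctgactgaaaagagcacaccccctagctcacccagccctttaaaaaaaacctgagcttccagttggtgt
Ifit3: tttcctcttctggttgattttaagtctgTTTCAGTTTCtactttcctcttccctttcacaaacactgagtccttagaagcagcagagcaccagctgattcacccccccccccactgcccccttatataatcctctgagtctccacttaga
Bst2: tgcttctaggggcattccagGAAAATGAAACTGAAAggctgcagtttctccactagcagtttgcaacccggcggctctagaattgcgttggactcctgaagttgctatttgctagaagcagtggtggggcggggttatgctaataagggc
Irf7: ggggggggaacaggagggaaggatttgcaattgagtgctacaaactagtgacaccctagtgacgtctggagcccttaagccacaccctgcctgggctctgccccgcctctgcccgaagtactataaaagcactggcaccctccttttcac
Psmb9: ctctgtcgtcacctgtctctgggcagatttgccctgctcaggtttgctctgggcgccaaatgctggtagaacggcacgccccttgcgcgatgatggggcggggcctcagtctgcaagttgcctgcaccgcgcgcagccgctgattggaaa

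Across the members with a RefSeq promoter entry (26 of 35), 13 or 50% held the ISRE letters in at least 1 window from 250 bases before to 50 after a start, against 3.63% of 14452 genes on the array and 3.44% of all 32851 windows. Ifit1 held 2 matches, the nearer beginning 85 bases before the start, and the 2 Bst2 matches overlap each other. GAS letters (TTCNNNGAA, the same on both strands, searched separately and free to overlap an ISRE) stood in 6 of 26 members, or 23.1%, against 8.57% of genes on the array. The 11 tested members with an ISRE match had a median WT array 1 excess of 1.58 on the log2 scale, from -0.26 for Eif2ak2 to 3.24 for Rsad2. The 12 tested members with a window and no match had a median of 0.91, from 0.18 for Irf9 to 2.58 for Irf7, so the ranges overlapped widely. A match is a description of the letters and not a measured site.

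The OAS family, enzymes and relatives that answer double-stranded RNA, repeated the pattern. Oasl2 read 560, 89.6 and 80.6 in WT and 216, 166 and 69.0 in the KO. Oas2 read 339, 48.9 and 43.4 in WT and 83.0, 61.4 and 101 in the KO. In both genes every KO array lay under WT array 1, and all but Oasl2 in KO array 3 lay above WT arrays 2 and 3. Oasl1 read 218, 83.0 and 85.3 in WT and 148, 61.8 and 64 in the KO, with array 1 highest in each genotype. None of the 3 passed (adjusted p = 0.606 to 0.865). Oas3 was dim, from 11.8 to 30.9 in WT and from 6.6 to 26.3 in the KO, and was not tested.

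Among the GTPases, the antiviral dynamin-like protein Mx1 read 97.0, 38.9 and 24.9 in WT and 35, 58.5 and 32 in the KO. Mx2 lay below the filter but still read 91.7 in WT array 1, against 6.3 and 3.3 in WT arrays 2 and 3 and 4.3 to 23.1 in the KO. The guanylate-binding proteins attack vacuoles of intracellular pathogens. Like Mx1, they were not highest in KO array 1 within the KO, on the probe sets that represent them. Gbp3 read 396, 124 and 120 in WT and 157, 178 and 334 in the KO, and Gbp2 read 856, 273 and 452 in WT and 549, 243 and 661 in the KO. For both genes KO array 3, not KO array 1, was the highest KO array. The name of this Gbp2 probe set marks possible cross-hybridisation, and on a second Gbp2 probe set KO array 1 was highest (505, against 340 and 375).

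Cytosolic nucleic acid sensors differed among themselves in the WT spread, which was 2.62-fold for Ifih1, 3.28-fold for Ddx58, 8.21-fold for Zbp1 and 31.4-fold for the dim Dhx58 (highest over lowest WT array). Ddx58 (RIG-I), the sensor of viral RNA ends, read 698, 446 and 213 in WT and 461, 354 and 223 in the KO. Ifih1 (MDA5), the sensor of long double-stranded RNA, read 732, 279 and 328 in WT and 354, 451 and 625 in the KO, where the order was turned and KO array 3 was highest. Zbp1, a sensor of left-handed nucleic acid, read 325, 89.1 and 39.6 in WT and 132, 86.1 and 53.1 in the KO. Differences were -0.28 ± 0.45, 0.18 ± 0.40 and -0.31 ± 0.60 (SE), with adjusted p = 0.733 to 0.812. Dhx58 (LGP2), a regulator of the other RNA helicases, was not tested and read 226, 36.8 and 7.2 in WT and 51.5, 42.9 and 18.0 in the KO.

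The PARP and TRIM proteins, which modify other proteins with ADP-ribose or ubiquitin, varied less between WT mice, apart from Trim30a. Trim30a read 487, 84.6 and 152 in WT and 281, 140 and 63.0 in the KO, but a dimmer Trim30a probe set had KO array 1 as the lowest KO array. Parp9 read 856, 514 and 866 in WT and 509, 625 and 440 in the KO. It is 1 of 3 tested members in which WT array 1 was not the highest WT array, with Irf9 and Eif2ak2. Parp14 read 490, 257 and 455 in WT and 337, 295 and 319 in the KO, and Trim25 read 1322, 619 and 933 in WT and 650, 707 and 949 in the KO. The differences of the 4 genes lay between -0.47 and -0.27, with adjusted p = 0.401 to 0.721. The name of this Trim25 probe set marks possible cross-hybridisation, its other probe sets differed by -0.72 and -1.49, and the mean of all of them by -0.82, so the size of the Trim25 difference is uncertain.

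Antigen processing genes had the genotype differences nearest 0 of the tested members. Psmb8, an immunoproteasome subunit, read 814, 510 and 532 in WT and 652, 582 and 554 in the KO. Psmb9, a second such subunit, read 352, 224 and 201 in WT and 320, 207 and 237 in the KO. Tap1, the peptide transporter whose promoter window overlaps that of Psmb9 on the opposite strand, read 280, 188 and 192 in WT and 232, 187 and 256 in the KO. All 3 genes were highest in WT array 1, but by 1.49-fold to 1.75-fold over the lowest WT array rather than by the several-fold spread of the IFIT genes. Their differences were -0.02, -0.01 and 0.04, with 95% intervals of -0.69 to 0.65, -0.73 to 0.72 and -0.63 to 0.71. Of the 30 tested members, 5 had an interval that lay wholly within 1 on the log2 scale (a 2-fold change) of 0: these 3, Irf1 and Parp14. For the other 25 the interval took in a 2-fold difference in at least 1 direction.

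The remaining interferon-induced members were Xaf1 and Ifi35. Xaf1, an antagonist of apoptosis inhibitors, read 620, 131 and 226 in WT and 498, 129 and 64.1 in the KO. Both number 1 arrays lay above all others, and Xaf1 differed by -0.64 ± 0.70 (SE, adjusted p = 0.606) and by 0.86 in the low-ratio arrays. A second Xaf1 probe set went the other way, reading 24.9, 353 and 558 in the KO, so the gene's level is uncertain. Ifi35, a leucine zipper protein, read 3732, 1705 and 1953 in WT and 1802, 1148 and 2264 in the KO. Its other probe sets differed by -1.10 and -1.20 against -0.47 for the brightest, whose name marks possible cross-hybridisation.

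**Figure D2:**
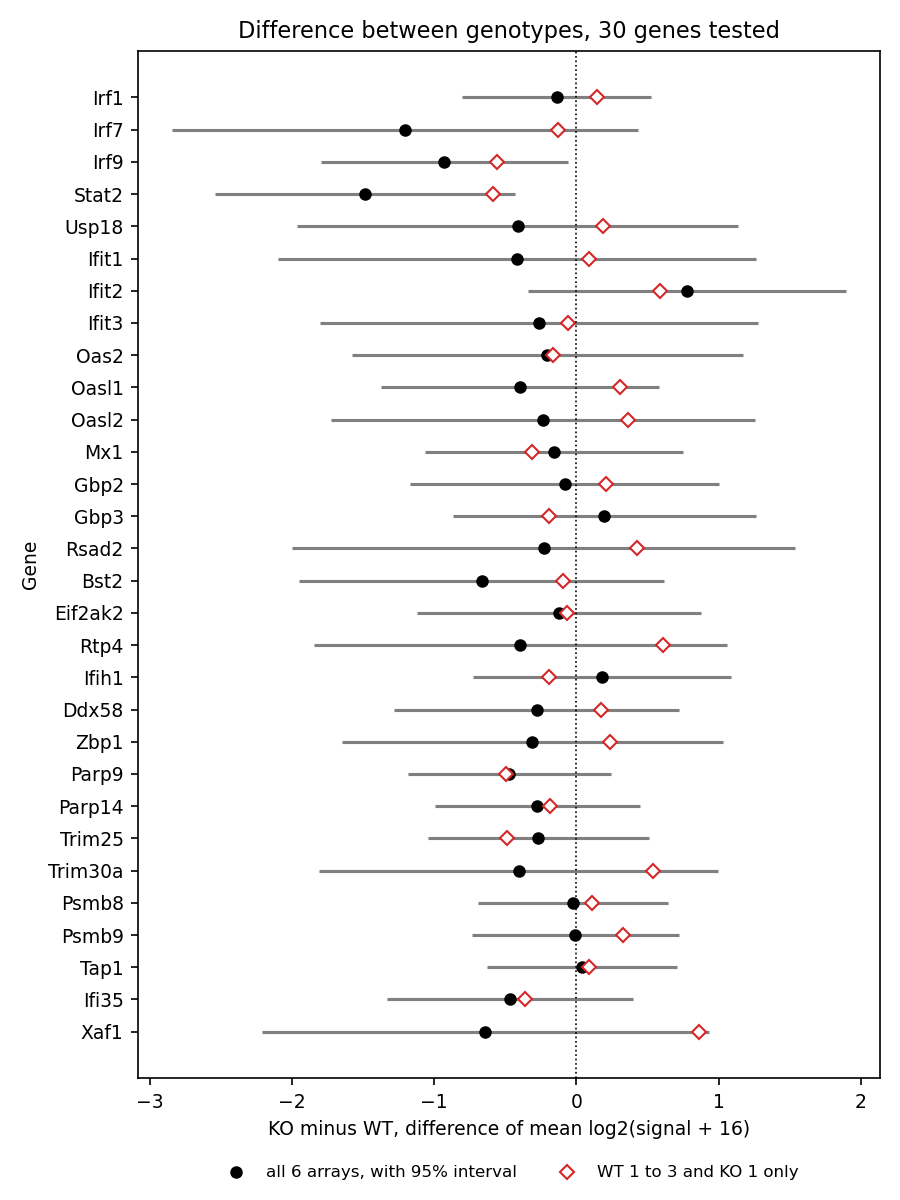
KO minus WT difference of mean log2(signal + 16) for the 30 interferon response genes tested (black points, all 6 arrays, with limma's 95% interval as a bar) and over the low-ratio arrays (open red diamonds, 3 WT arrays and KO array 1). Bars cross 0 for all genes but Stat2 and Irf9, and many diamonds lie right of their black point, for example Xaf1 at 0.86 against -0.64.

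The direction between genotypes depended on which arrays were compared. Of the 30 members, 16 changed sign without WT array 1, 16 in the low-ratio arrays, which leave out KO arrays 2 and 3, and 9 without KO array 3, against 0 without KO array 1. With all arrays 26 of 30 members had a lower KO mean, against 46% of all genes tested. Without WT array 1, 10 of 30 were lower and 20 higher, and in the low-ratio arrays 14 were lower and 16 higher. Leaving out both number 1 arrays, an alternative chosen after the data were seen, gave 14 lower and 16 higher with a median of 0.08. Within replicate numbers, KO array 1 was lower than WT array 1 for 29 of 30 members, with a median of -0.90 (0.07 over all genes tested). KO array 2 was lower than WT array 2 for 12 of 30 (median 0.18), and KO array 3 lower than WT array 3 for 13 of 30 (median 0.06). Irf7, Irf9, Stat2, Oasl1, Bst2 and Xaf1 were lower in KO in each of these pairs, which makes 6 of 30, against 23.7% of all genes tested, and 0 of 30 were higher in each, against 30.9%.

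**Figure D3:**
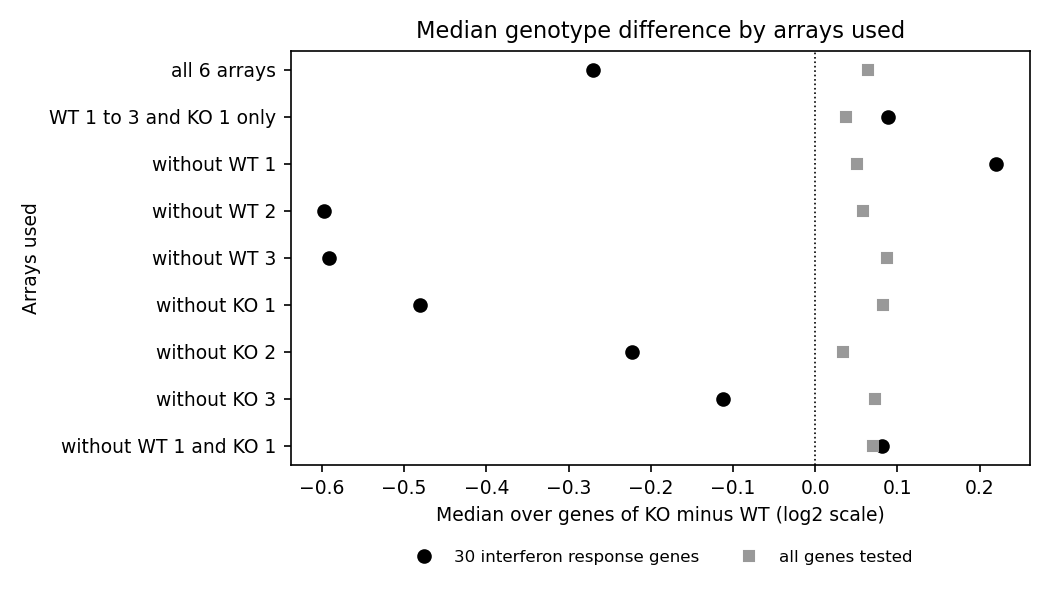
Median KO minus WT difference (log2 scale, horizontal axis) over the 30 interferon response genes (black circles) and over all genes tested (grey squares), for all 6 arrays and with arrays left out (rows). The black circle moves from -0.27 with all arrays to 0.22 without WT array 1 and to -0.60 without WT array 2, while the grey squares stay between 0.03 and 0.09.

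Within the WT group the members moved as a block. In WT array 1, 29 of 30 members lay above their WT mean, with a median deviation of 0.83 on the log2 scale, where 49.1% of all genes tested lay above. In WT arrays 2 and 3, 4 and 3 of 30 lay above, and neither array was consistently the lowest: each was lowest for 15 of 30. An excess of at least 1 on the log2 scale in WT array 1 was found for 20 of 30 members and 4.01% of all genes tested, and for 10 members it was at least 2, or 4-fold. Of the 100 genes with the largest WT array 1 excess among all genes tested, 14 were members. After all arrays were put on 1 distribution by quantile normalization, the median excess was 1.34 for the members and 0.01 for all genes, with WT array 1 highest for 28 of 30.

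Within the KO group the same ordering was present but weaker. KO array 1 was the highest KO array for 18 of 30 members (35.5% of all genes tested) and lay above the KO mean for 24 of 30, with a median deviation of 0.31. KO array 3 was lowest for 18 of 30, against 41.5% of all genes tested. The excess of KO array 1 over the mean of KO arrays 2 and 3 had a median of 0.47, against 0.01 over all genes. It reached at least 1 for 6 of 30 members, Irf7, Stat2, Oasl1, Rtp4, Trim30a and Xaf1, and for 9.54% of all genes. KO arrays 2 and 3 are those with high Gapdh ratios, and KO array 3 has the high Actb ratio too. The place of KO array 1 above these 2 thus moved with RNA quality, whose part in the result was not tested. Between KO arrays 2 and 3 the values were mixed, with median deviations of -0.08 and -0.26 but summed member signals of 8424 and 9517. In WT the ratios were 1.09, 0.833 and 0.876. For 18 of 30 members array 1 was the highest in both genotypes, against 20.8% of all genes tested. The poly-A control Dap, which is added to the RNA and does not come from the animals, was also highest in array 1 of each genotype (2383, 120 and 734 in WT, 1152, 83.8 and 463 in the KO), as was the control Thr. The controls BioB and Cre were highest in WT array 1 too, but in the KO group in array 2 (145, 165 and 71.0 for BioB, 6978, 8406 and 4760 for Cre). Whether handling had a part in the pattern was not tested.

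**Figure D4:**
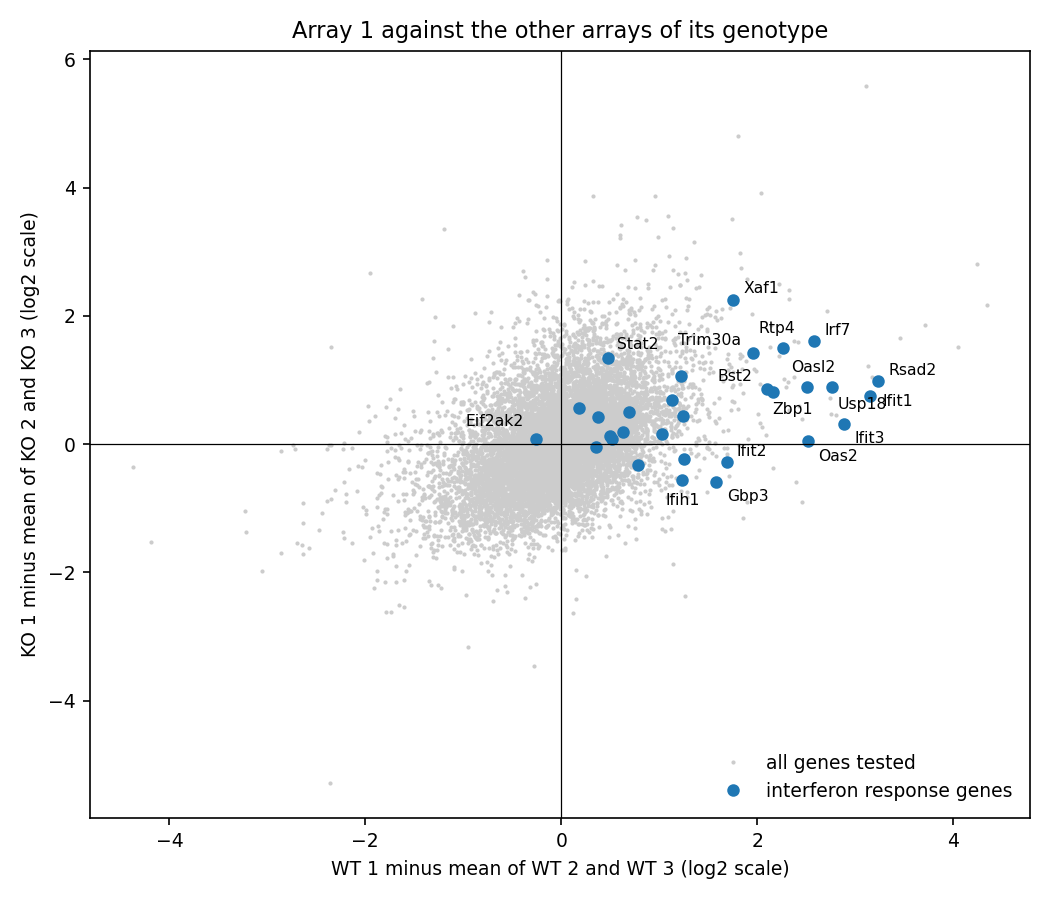
Excess of WT array 1 over the mean of WT arrays 2 and 3 (horizontal) against that of KO array 1 over KO arrays 2 and 3 (vertical), both on the log2 scale, for all 10916 genes tested (grey) and the 30 interferon response genes (blue). The blue points stretch to the right, to 3.24 for Rsad2, and spread less upward, with Xaf1 highest at 2.25.

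The genes upstream of the response had lower median WT array 1 excesses than the members, from -0.36 to 0.31 on the log2 scale over the lists tested. Of the interferons themselves, 5 of 9 ligand genes were measured and none passed the filter on low signals, with Ifnb1 at 26.2 to 43.7 in WT and 9.4 to 21.3 in the KO, and Ifna1 at 59.4 in WT array 1 against 22.8 and 25.1 in the others. The 6 receptor chains had a median WT array 1 excess of -0.36. None of the 6 passed. Of these the smallest p were those of Ifngr2, a chain of the interferon gamma receptor, and Ifnlr1, a chain of the interferon lambda receptor. Ifngr2 read 115, 189 and 310 in WT and 134, 151 and 15.1 in the KO (-1.17 ± 0.62, SE, adjusted p = 0.291), with KO array 3 far below the others. Ifnlr1 read 70.3, 79.2 and 94.9 in WT and 89.4, 162 and 72.8 in the KO (0.29 ± 0.33, SE, adjusted p = 0.624). Of 9 tested kinases, STATs and other interferon regulatory factors none passed, with the smallest p for Irf8, a factor of myeloid cells (0.94 ± 0.32, SE, adjusted p = 0.140), and Stat3 (-1.53 ± 0.66, adjusted p = 0.215, KO signals 1710, 416 and 189).

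Among 6 tested inhibitors of the pathway none passed, and 5 had a higher KO mean. The phosphatase Ptpn6 read 226, 124 and 136 in WT and 636, 253 and 377 in the KO, and the feedback inhibitor Socs3 read 54.1, 205 and 226 in WT and 237, 352 and 509 in the KO. In both genes every KO value lay above every WT value, and both passed in the paired fit (adjusted p = 0.0263 and 0.0375). Socs3 was lowest in WT array 1, unlike the interferon-induced members. Of 9 tested genes of nucleic acid sensing upstream of interferon, 8 had a lower KO mean and none passed, among them Ticam1 (-0.80 ± 0.33, SE, adjusted p = 0.1995) and Sting1 (-1.10 ± 0.48, adjusted p = 0.222).

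Other interferon-induced genes, a list of 49 of which 37 were tested, shared the WT spread. Their median WT array 1 excess was 1.00, and WT array 1 was highest for 30 of 37. Oas1a read 1884, 202 and 188 in WT and 452, 141 and 314 in the KO. The 2 with the smallest p departed from the members: Ifi27l2a read 1505, 767 and 827 in WT and 4029, 2192 and 2771 in the KO (1.54 ± 0.36, SE, adjusted p = 0.0670), and Cmpk2, a nucleotide kinase, read 1256, 1236 and 1283 in WT and 612, 349 and 409 in the KO (-1.47 ± 0.30, SE, adjusted p = 0.0555). Neither group pair overlapped, and both passed in the paired fit (adjusted p = 0.0140 and 0.0191). There Ifitm1, a membrane protein that blocks virus entry, was also higher in KO (1.30 ± 0.31, SE, adjusted p = 0.0699; 0.0237 in the paired fit), and the exonuclease Isg20 lower (-1.68 ± 0.61, SE, adjusted p = 0.161; 0.0235 in the paired fit). The list as a whole had 20 higher and 17 lower KO means. In MHC class I presentation 0 of 12 passed (2 were lower in the paired fit), with a median difference of -0.46 (-0.15 in the low-ratio arrays). The smallest p was that of Nlrc5, the transactivator of class I genes, which went the other way from this median: it read 73.1, 50.7 and 65.0 in WT and 81.6, 102 and 175 in the KO (0.73 ± 0.33, SE, adjusted p = 0.233). The heavy chain H2-K1 read 13966, 8891 and 7702 in WT and 7792, 6024 and 5412 in the KO (-0.64 ± 0.31, SE, adjusted p = 0.255; 0.0475 in the paired fit), on a probe set whose name marks possible cross-hybridisation with its near-identical relatives. The light chain B2m was the other of the 2 (-0.67 ± 0.35, SE, adjusted p = 0.286; 0.0442 in the paired fit).

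Pan-leukocyte, dendritic cell and T cell markers summed highest in WT array 1, as the members did, with smaller excesses. The sums of the other leukocyte lists were not highest there. The summed signal of the 33 measured members was 24675 in WT array 1 and 8587 and 9474 in WT arrays 2 and 3, while that of 4 of 4 pan-leukocyte markers was 1590, 1524 and 1326. Dendritic cell markers (5 of 5) summed to 504, 221 and 336 in WT, and T cell markers (6 of 8) to 739, 520 and 561. Macrophage and monocyte sums (7532, 6784 and 9642) and NK cell sums (535, 225 and 555) were highest in WT array 3. The macrophage and monocyte sum followed Cd14 (2895, 3689 and 6214 in WT). By single genes, 5 of 8 macrophage and monocyte markers and 3 of 6 NK cell markers were highest in WT array 1. B and plasma cell sums (1451, 2868 and 3515) and neutrophil sums (124, 215 and 187) were lowest in WT array 1. The B and plasma cell sum followed Jchain (1105, 2485 and 3174 in WT). The other way went 3 of 5 markers, Ms4a1, Cd79a and Cd79b, which were highest in WT array 1. Plasmacytoid dendritic cell sums were 450, 457 and 388. The median WT array 1 excess of the tested genes was 0.80 for NK cell, 0.70 for dendritic cell, 0.62 for T cell, 0.46 for macrophage and monocyte and 0.34 for pan-leukocyte markers, against 1.25 for the members. It was 0.21 for B and plasma cell, -0.03 for plasmacytoid dendritic cell and -0.61 for neutrophil markers. Few genes were tested in some lists: 2 plasmacytoid dendritic cell, 2 neutrophil and 3 NK cell markers. The plasmacytoid median leaves out Siglech, which lay below the filter and had a WT array 1 excess of 1.43. The part of these cells in the result was not tested. Across genotypes and with all 6 arrays, the pan-leukocyte markers went the other way from the members. The pan-leukocyte sum was 1326 to 1590 in WT and 2366 to 4402 in the KO, where the members summed to 8424 to 12005. The members' KO sums lay below WT array 1 but overlapped those of WT arrays 2 and 3. Ptprc and Laptm5 exceeded WT in every KO array, most in KO array 3 (1835 and 1718), while Coro1a and Lcp1 overlapped WT. In whole glands, fewer cells of a type and less RNA per cell cannot be told apart. Sums of 8 of 8 macrophage and monocyte markers were 6784 to 9642 in WT and 9087 to 12644 in the KO. For T cell markers they were 868 to 1932 in the KO, and for 5 of 6 B and plasma cell markers 1451 to 3515 in WT and 3657 to 6499 in the KO. For 4 of 4 plasmacytoid dendritic cell markers, the cells known for making type I interferon, sums were 388 to 457 and 1219 to 1963. The higher KO sum came from Tcf4 and Ly6d, which other cells also express, whereas Siglech, the defining marker, read 58.4, 7.8 and 15.9 in WT and 29.4 to 48.3 in the KO, below the filter. NK cell markers (6 of 7) summed to 225 to 555 in WT and 200 to 467 in the KO, dendritic cell markers to 270 to 435 in the KO, and neutrophil markers (3 of 5) to 124 to 215 in WT and 504 to 706 in the KO. No measured marker was at 0 in all arrays. The milk-secreting markers moved with the members, with array 1 highest in both genotypes for 5 of 5 and a median WT array 1 excess of 1.16. Fibroblast markers (7 of 7) summed highest in array 1 of each genotype, at 18681, 11624 and 12471 in WT and 35069, 26953 and 20584 in the KO. Array 1 was highest in both genotypes for 4 of 7, as for 4 of 7 tested macrophage and monocyte markers, and the median WT array 1 excess was 0.51. Across genotypes the fibroblast markers went the other way from the members. Their KO mean was higher for 7 of 7, with a median difference of 1.075 (-0.27 for the members). Adipocyte markers (4 of 6) summed highest in array 1 of each genotype, at 26999, 17433 and 20116 in WT and 30010, 21198 and 19882 in the KO. In WT that sum followed Lpl (19932, 11493 and 10476), the only 1 of 4 highest in WT array 1. Their median WT array 1 excess was 0.14. The part of these cells in the result was not tested. Luminal keratin and adhesion markers (5 of 5) did not share the WT array 1 excess, with 0 of 5 highest in WT array 1.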

How the data were processed

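Per the submitters' processing notes, the authors made the values with MAS5 and the affy package, with no version, role or order given. The deposited values are linear signal intensities of 45101 probe sets, scaled per array (mean of 150 after trimming 2% at each end, from the values). Probe sets were named through the platform annotation, with 932 that list several genes left out, and of several probe sets the brightest on average represented a gene. A pseudocount of 16 was added before log2, so fold changes of dim genes are understated. Genes under the 40th percentile of mean log2 (a signal of about 43.8) were left out (7277). KO was tested against WT in limma 3.58.1 (R 4.3.3; lmFit, then eBayes with a trend on intensity, no block), and p-values were adjusted by Benjamini-Hochberg over 10916 genes, with a threshold of 0.05. Intervals are limma's moderated 95% intervals. The members and lists were chosen with earlier results of these data known. Named genes are all members and the 2 genes of each pathway list with the smallest p; others (Ifnb1, Ifna1, Oas1a, Ifitm1, Isg20, B2m and the markers with values) were picked after their values were seen.

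The labels do not say that replicate numbers pair the mice, but same-numbered arrays deviated together from their group means across genes (correlations of 0.46, 0.33 and 0.30, highest between different numbers 0.15), hence the paired fit. Promoter sequences are from RefSeq (GRCm38.p6).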

Additional observations from a re-analysis of the deposited data

How the results depend on the processing

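The number of calls over all 10916 genes was 118, and 131 with a pseudocount of 64, 52 with a pseudocount of 1, 29 without the filter, 178 after quantile normalization, 11 with median centring, 69 with the mean of all probe sets and 1307 with the replicate block. It was 0 in the low-ratio arrays, with 1016 genes at an unadjusted p under 0.05. Leaving out single arrays gave 0 to 1208 calls, with 10, 0 and 1 without WT arrays 1, 2 and 3, 1208 without KO array 1, and 1 and 0 without KO arrays 2 and 3. Members called were 2 with the replicate block (Stat2 and Irf7), 0 to 1 when arrays were left out (Stat2 without KO array 1) and 0 under the other alternatives, and the block changed no other member's call. The members' median difference ran from -0.60 to 0.22 when arrays were left out (the members' median in single arrays had an SD of 0.67 within a genotype). Of 450 member differences under 15 alternatives, 68 had the opposite sign, and none of these passed. In the low-ratio arrays these were Irf1 0.15, Usp18 0.19, Ifit1 0.086, Oasl1 0.31, Oasl2 0.36, Gbp2 0.21, Gbp3 -0.19, Rsad2 0.43, Rtp4 0.61, Ifih1 -0.19, Ddx58 0.17, Zbp1 0.24, Trim30a 0.54, Psmb8 0.11, Psmb9 0.33 and Xaf1 0.86, with the mean of all probe sets Parp14 0.007, Trim30a 0.029, Psmb8 0.53, Tap1 -0.041 and Xaf1 0.29, and with median centring Tap1 -0.021. The ranges of members that changed sign when arrays were left out were -0.28 to 0.005 for Irf1, -0.98 to 0.51 for Usp18, -0.98 to 0.63 for Ifit1, -0.89 to 0.70 for Ifit3, -0.65 to 0.64 for Oas2, -0.75 to 0.009 for Oasl1, -0.69 to 0.60 for Oasl2, -0.47 to 0.34 for Mx1, -0.46 to 0.34 for Gbp2, -0.11 to 0.92 for Gbp3, -0.82 to 0.85 for Rsad2, -1.12 to 0.035 for Bst2, -0.55 to 0.33 for Eif2ak2, -0.90 to 0.36 for Rtp4, -0.079 to 0.78 for Ifih1, -0.72 to 0.10 for Ddx58, -0.90 to 0.41 for Zbp1, -0.54 to 0.10 for Trim25, -0.92 to 0.24 for Trim30a, -0.14 to 0.19 for Psmb8, -0.17 to 0.23 for Psmb9 and -0.053 to 0.21 for Tap1. The cause of these changes was not tested. Low signals limit the 3 members below the filter and dim ones such as Mx1, Ifit2, Stat2, Eif2ak2, Oasl1 and Oas2.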

Other observations

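Genes outside the interferon response also stood out in WT array 1. Of the 20 genes with the largest excess over WT arrays 2 and 3, 7 were members (Rsad2, Ifit1, Ifit3, Usp18, Irf7, Oas2 and Oasl2) and Oas1a was a further interferon-induced gene; this look was taken after the data were seen. The first on the list was Ctse, an intracellular aspartic protease, at 1940, 107 and 59.1 in WT and 90.4, 12.4 and 3.5 in the KO. Car6, a secreted carbonic anhydrase, read 3380, 127 and 211 in WT and 1117, 172 and 124 in the KO. Ccl28, a mucosal chemokine of secretory epithelium, read 3087, 106 and 442 in WT and 948, 255 and 245 in the KO, and the secreted protein Pip read 3953, 256 and 461 in WT and 656, 225 and 172 in the KO. All 4 were highest in array 1 of both genotypes. Ucp1, the uncoupling protein of brown fat, read 672, 13.8 and 191 in WT and 664, 406 and 187 in the KO.

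By root mean square distance (log2) from the members' median deviation over the 6 arrays, among 2799 genes that vary at least as much, the closest 10 genes outside the lists were Plet1, Slc5a2, Tmprss4, Mertk, Steap2, Pld4, Mknk2, Car8, Rps14 and Prcd, at 0.05 to 0.15. The members themselves lay at 0.21 (Oasl1) to 0.74 (Eif2ak2) from it. The 10 genes were picked for being closest, so the distances of the 2 sets are not compared. Plet1, a surface protein of epithelial progenitors, read 16177, 6318 and 7159 in WT and 6813, 5521 and 4864 in the KO. Mertk, a receptor kinase of phagocytes, read 435, 138 and 175 in WT and 276, 178 and 149 in the KO.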
